A study of Mus musculus with 24 samples.

Results

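The genes described here are 2 neurexins, Nrxn2 and Nrxn3, and 3 neuroligins, Nlgn1, Nlgn2 and Nlgn3. They were chosen by name, with earlier results of these data known, as 5 of the 33902 gene symbols in the single-nucleus RNA sequencing (snRNA-seq) count table of mouse ventral hippocampus. They are followed through all 17 cell types of that table and between 2 inbred strains. Neurexins are presynaptic adhesion molecules whose long and short forms are transcribed from separate promoters of the same gene and which are then spliced into many isoforms. Neuroligins are postsynaptic adhesion molecules that bind neurexins across the synaptic cleft. Nlgn1 is best known from excitatory synapses, Nlgn2 from inhibitory synapses, and Nlgn3 from both, and astrocytes and other glia also transcribe members of both families. Glutamatergic principal neurons of the hippocampus and the local inhibitory interneurons are therefore the cells in which this system is usually studied.

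The strains were C57BL/6J (B6) and DBA/2J (D2), both unmodified, and the animals were males of 10 to 16 weeks. Each strain had 2 snRNA-seq libraries and 2 single-nucleus ATAC sequencing (snATAC-seq) libraries, each made from ventral hippocampi of approximately 2 pooled animals. The snRNA-seq nuclei had been sorted to enrich for neurons by the nuclear marker NeuN and the snATAC-seq nuclei had not. The libraries are numbered 2 and 3 in the count tables and 1 and 2 in the sample labels, so that only the strain of a column is certain, and the numbers in the tables are used below. Each count is the sum over all nuclei of a cell type in a library, and each level is given as CPM, the counts of a gene per 1000000 counts of that cell type and library in symbols with counts in both strains. A level therefore describes the share of a cell type's nuclear RNA and does not depend on how many nuclei were caught.

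The snRNA-seq libraries held from 43048686 to 56452272 counts in 6312 to 8707 nuclei, and a single cell type in a single library held from 139713 to 11352265 counts. The snATAC-seq libraries held from 90684494 to 122322471 counts in 300819 peaks and 15 cell types. Of 14 lists of cell type markers, all but 2 were highest in the cell type of their name. The list for the dentate gyrus and the list for Lamp5 interneurons, which includes Reln, were highest in CR-CR and second in Exc-DG and Inh-Lamp5. Prefixes of the cell type names mark excitatory (Exc), inhibitory (Inh) and non-neuronal (NN) types, the last being astrocytes (Astro), oligodendrocyte precursors (OPC), oligodendrocytes (ODC), microglia (MGC) and vascular leptomeningeal cells (VLMC). CR-CR has none of these prefixes. It is left out of the level ratios of neurons over non-neuronal types, and is counted as neuronal in the shares of tests of all genes.

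On mouse build GRCm38, Nrxn2 lies at chr19:6418731-6544169 on the plus strand and Nrxn3 at chr12:88722876-90334935 on the plus strand. Nlgn1 lies at chr3:25426215-26332460 on the minus strand, Nlgn2 at chr11:69823122-69837784 on the minus strand, and Nlgn3 at chrX:101299168-101325963 on the plus strand. The spans run from 14.7 kb for Nlgn2 to 1612.1 kb for Nrxn3, and counts include intronic reads, so that long genes collect more counts. The 4 libraries together gave Nrxn3 322462 counts in B6 and 244694 in D2, Nlgn1 347224 and 281196, Nrxn2 15221 and 13053, Nlgn2 4899 and 4161, and Nlgn3 3937 and 2053. Averaged over the 17 cell types and divided by the gene span, the levels were 3.30 CPM per kb for Nlgn2, 2.91 for Nlgn1, 1.73 for Nrxn3, 1.18 for Nrxn2 and 1.08 for Nlgn3. Divided by exonic length, the levels were 221 CPM per kb for Nrxn3 and 196 for Nlgn1, above 10.7 for Nrxn2, 8.38 for Nlgn2 and 3.13 for Nlgn3, so that the order of the genes depended on the length used.

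Other annotated symbols overlap 4 of the genes. Gm21986, a processed transcript on the same strand, covers 82.78% of the Nlgn3 span, and its exons hold 41.2% of the exonic bases of Nlgn3. Gm21986, with 0 counts in B6 and 69 in D2, was 1 of 8204 symbols with counts in D2 only. Within Nrxn3, the same-strand symbols Gm48692 and Gm48700 had 555 and 1773 counts, all in D2, or 0.227% and 0.725% of the D2 counts of Nrxn3, and Gm27313 and Gm37980 on the other strand had 7 and 196, also all in D2. Nlgn1 overlaps Gm37573 on its own strand with 119 counts in B6 and 118 in D2. Opposite to Nlgn1 lie Gm24250 with 0 and 3 counts, Gm6197 with 0 and 1057, and A830092H15Rik with 810 and 493. Opposite to Nrxn2 lie Gm14964 with 1287 counts in B6 and 1779 in D2 and Slc22a12 with 186 and 106. Whether strand was used in counting is not given in the sources used here, so reads of opposite genes may not be separable.

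Promoter sequences of 300 bases, from 250 before to 50 after a transcript start, were available from RefSeq (GRCm38.p6) for Nlgn1, Nlgn2 and Nrxn3. Of their 6 promoters, the 4 shown have the starts whose chromatin is described below. Each is written 5′ to 3′ on the strand of its gene, with CpG dinucleotides in capitals. The first pair are the promoters of Nlgn1 (chr3:26331860-26332159, minus strand) and Nlgn2 (chr11:69837735-69838034, minus strand), and the second pair are starts inside Nrxn3 (chr12:88953140-88953439 and chr12:89812233-89812532, plus strand), 230.5 and 1089.6 kb from the 5′ end of the gene.
Nlgn1: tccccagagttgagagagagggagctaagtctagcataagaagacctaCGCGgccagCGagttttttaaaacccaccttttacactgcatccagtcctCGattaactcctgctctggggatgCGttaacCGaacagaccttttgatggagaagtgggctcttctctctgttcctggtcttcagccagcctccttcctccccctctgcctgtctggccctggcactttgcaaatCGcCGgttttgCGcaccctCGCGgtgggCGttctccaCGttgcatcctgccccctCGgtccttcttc
Nlgn2: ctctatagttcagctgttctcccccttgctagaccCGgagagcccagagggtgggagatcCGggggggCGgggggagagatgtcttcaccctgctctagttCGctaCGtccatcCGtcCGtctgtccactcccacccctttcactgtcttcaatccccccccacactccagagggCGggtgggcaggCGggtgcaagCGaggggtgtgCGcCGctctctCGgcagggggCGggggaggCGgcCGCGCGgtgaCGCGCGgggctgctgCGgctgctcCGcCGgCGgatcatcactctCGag
Nrxn3 start at 230.5 kb: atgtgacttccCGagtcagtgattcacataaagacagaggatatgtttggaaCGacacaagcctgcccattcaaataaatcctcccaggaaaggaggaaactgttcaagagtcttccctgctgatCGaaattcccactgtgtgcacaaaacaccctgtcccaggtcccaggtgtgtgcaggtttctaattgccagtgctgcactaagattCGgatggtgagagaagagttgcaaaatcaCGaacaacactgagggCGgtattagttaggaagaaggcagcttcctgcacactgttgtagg
Nrxn3 start at 1089.6 kb: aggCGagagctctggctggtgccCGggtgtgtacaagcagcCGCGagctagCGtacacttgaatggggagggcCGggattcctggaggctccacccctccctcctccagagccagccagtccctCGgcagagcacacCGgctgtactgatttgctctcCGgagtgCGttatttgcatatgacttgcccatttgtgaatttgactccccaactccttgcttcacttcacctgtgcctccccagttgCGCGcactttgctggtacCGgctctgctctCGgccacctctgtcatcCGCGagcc

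The 4 sequences differed in CpG content. The Nlgn2 promoter held 26 CpG dinucleotides, more than 83.1% of 32851 mouse promoters of the same length, whose median was 7. The Nlgn1 promoter held 14, the Nrxn3 start at 1089.6 kb held 16 and the Nrxn3 start at 230.5 kb held 6, more than in 63.7%, 67% and 43.6% of promoters. The letters GGGCGG, searched on both strands, were found in the Nlgn2 promoter and at the Nrxn3 start at 230.5 kb, and in 35.7% of all promoters. The letters TATAAA, present in 13.6% of all promoters, were found in none of the 6 windows.

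Across cell types the 5 genes had separate profiles. Nrxn3 was highest in inhibitory neurons and Nlgn1 in excitatory neurons, while Nrxn2, Nlgn2 and Nlgn3 were all highest in oligodendrocyte precursors. Cell types had been defined by clustering these same transcriptomes, so that differences of level among them are given as a description with no test. Levels below are means of the 4 libraries of both strains with their SD.

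Nrxn3 spanned the widest range, from 13407 ± 683 CPM in Inh-CGE to 133 ± 78.9 CPM in NN-ODC (SD, n = 4), a 101-fold difference. The B6 libraries had 13428 and 14091 CPM in Inh-CGE and the D2 libraries 13638 and 12469.9 CPM. Every Inh-CGE library was above every library of Inh-MGE, the next type, with 7839 ± 371 CPM. Exc-CA3 followed with 4471 ± 572 CPM, again without overlap, while Inh-Lamp5 with 2655 ± 105 CPM stood seventh. Among excitatory types Nrxn3 was lowest in the granule cells of the dentate gyrus (Exc-DG), with 869 ± 70.6 CPM. OPC, with 2235 ± 89.2 CPM, stood apart from the other non-neuronal types, which ranged from 133 to 272 CPM. Between neighbours in the order of the 17 types, 8 of 16 pairs did not overlap. Inhibitory types exceeded excitatory types 3.18-fold in the mean level, in 4 of 4 libraries, and neurons exceeded non-neuronal types 6.70-fold.

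Nlgn1 had another order within neurons, with excitatory types above inhibitory types on average. It was highest in Exc-Cdh12 with 5679 ± 223 CPM, and its 4 libraries, with 5947, 5775, 5523 and 5469 CPM, were all above those of Exc-CA3 with 4704 ± 75.3 CPM. Exc-CA3 and OPC, with 4680 ± 182 CPM, overlapped. Within the CA1 types it was 4415 ± 26.0 CPM in Exc-CA1-Galntl6, 4196 ± 125 CPM in Exc-CA1-Camk2d and 3084 ± 44.3 CPM in Exc-CA1-Fras1. Exc-ENT with 1213 ± 130 CPM was the lowest excitatory type and lay near Inh-CGE with 1434 ± 140 and Inh-MGE with 1041 ± 67.7 CPM. Astrocytes, with 2502 ± 209 CPM, were above 2 of the 3 inhibitory types, and the lowest levels were in VLMC with 362 ± 82.2 and microglia with 297 ± 91.7 CPM. The mean level over inhibitory types was 0.458 times that over excitatory types, lower in 4 of 4 libraries, and neurons exceeded non-neuronal types 1.87-fold. Neighbours did not overlap in 8 of 16 pairs.

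Nrxn2 was highest in OPC with 442 ± 131 CPM, where the B6 libraries had 606 and 487 CPM and the D2 libraries 353 and 321 CPM. Astrocytes followed with 235 ± 35.2 CPM and Inh-CGE with 209 ± 13.8 CPM, so that the first cell type stood apart from the second. The remaining neurons lay within a narrow range, from 104 ± 11.3 CPM in Exc-DG to 164 ± 12.8 CPM in Inh-MGE, and only 2 of 16 neighbouring pairs did not overlap. Inhibitory types exceeded excitatory types 1.46-fold in 4 of 4 libraries. Microglia had the lowest level, with 43.0 ± 9.38 CPM, 10.3-fold below OPC.

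The short genes Nlgn2 and Nlgn3 were less graded across cell types. Nlgn2 ran from 96.8 ± 7.10 CPM in OPC to 20.6 ± 5.07 CPM in microglia and 21.1 ± 2.21 CPM in oligodendrocytes. Among neurons it ran from 39.0 ± 3.52 CPM in Exc-CA1-Camk2d to 64.5 ± 13.4 CPM in Inh-Lamp5. The mean over inhibitory types was 1.19 times that over excitatory types, with a log2 ratio of 0.25 ± 0.20 (SD, n = 4). With TMM factors over all columns the ratio was 0.11 and above 0 in 2 of 4 libraries, and with counts summed over the class 0.24 and above 0 in 4 of 4. Nlgn3 was 71.4 ± 18.3 CPM in OPC, against 35.5 ± 12.6 CPM in astrocytes and 34.2 ± 11.96 CPM in Exc-DG, and the other types lay between 22.7 and 31.6 CPM except microglia and oligodendrocytes, with 15.7 ± 6.66 and 14.9 ± 4.95 CPM. For each gene 1 of 16 neighbouring pairs did not overlap, which were OPC and astrocytes for Nlgn3 and astrocytes and oligodendrocytes for Nlgn2. The ranges pool libraries of both strains, so that they can overlap where every library keeps the order. For Nlgn3, Exc-DG was above Inh-Lamp5 and Inh-Lamp5 above Inh-CGE in 4 of 4 libraries, although their ranges overlapped. The inhibitory over excitatory log2 ratio of Nlgn3 was 0.09 ± 0.08 with libraries scaled to their totals and below 0 with 2 other scalings, so that no direction is given.

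**Figure D1:**
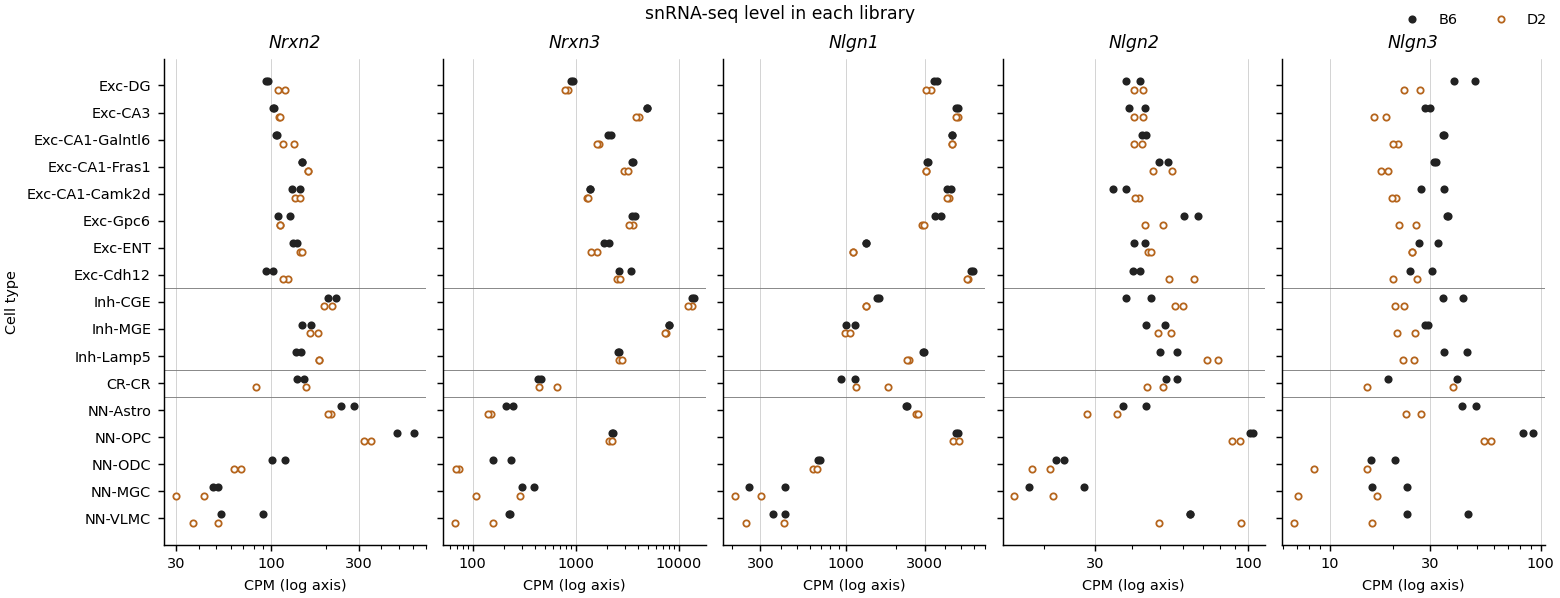
Levels of the 5 genes in snRNA-seq, with cell types on the vertical axis and CPM on a log horizontal axis, where each point is a library of B6 (filled) or D2 (open). Nrxn3 is highest in Inh-CGE at 13407 CPM, Nlgn1 in Exc-Cdh12 at 5679 CPM, and Nrxn2, Nlgn2 and Nlgn3 in OPC.

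The genes with the most similar profile to each member were sought among 11042 genes, by the Pearson correlation of log2(CPM + 1) over the 17 cell type means. The points share libraries and clusters, so the correlations are descriptive. For Nrxn3 they were Gm7568 (r = 0.952), the sodium channel gene Scn1a (0.948) and the calcium sensor gene Vsnl1 (0.934). For Nlgn1 they were the phosphatase gene Acp1 (0.980), Gm26952 (0.891) and Rgs7 (0.883), a regulator of G protein signalling. For Nrxn2 they were Rev3l (0.898), Phactr3 (0.893) and Tmem121 (0.889), for Nlgn2 Armcx4 (0.933), Pknox2 (0.861) and Dpysl3 (0.856), and for Nlgn3 Mir9-3hg (0.907), the kinase gene Fyn (0.858) and Rimklb (0.853). Between members, the closest pair was Nrxn2 and Nlgn3 with r = 0.831, and Nrxn2 had rank 5 in the list of Nlgn3.

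Accessible chromatin at transcript starts divided the cell types in a different way for different starts of the same gene. Of the peaks in and next to the genes, 15 lay within 1 kb of an annotated start. Levels are CPM of the snATAC-seq peaks, averaged over the 8 excitatory, 3 inhibitory and 4 non-neuronal types of that table, and are given as a description. At Nrxn3, the peak 2.8 kb from the 5′ end (chr12:88726025-88726677) had 14.3 CPM in inhibitory types, against 0.959 in excitatory and 1.06 in non-neuronal types. It had 12.9, 18.6, 15.9 and 16.2 CPM in the 4 libraries of Inh-CGE, from 30 to 68 counts. The highest of 4 values in Exc-DG was 0.885 CPM, so that each Inh-CGE library was above all of Exc-DG. At the start 230.5 kb into Nrxn3, shown above with 6 CpG dinucleotides, the order was reversed, with 13.7 CPM in excitatory, 6.41 in inhibitory and 2.59 in non-neuronal types. Within excitatory types this peak ran from 3.86 CPM in Exc-DG to 20.5 CPM in Exc-ENT. The start at 1089.6 kb, a start of annotated protein-coding transcripts, had 18.1, 27.5 and 15.2 CPM in excitatory, inhibitory and non-neuronal types, and 28.4 CPM in Exc-DG.

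Nrxn2 and Nlgn3 also had starts with unlike profiles. The 5′ start of Nrxn2 (chr19:6418114-6418866) had 22.7 CPM in excitatory, 34.5 in inhibitory and 41.2 in non-neuronal types. The peak 35.8 kb further on (chr19:6453399-6453699) had 0.955, 4.57 and 23.4 CPM. In oligodendrocytes its 4 libraries had 45.9, 41.6, 28.9 and 24.4 CPM, which rest on 8 to 17 counts each, and in microglia the mean was 3.58 CPM. At Nlgn3 the 5′ start had 14.4, 15.6 and 21.5 CPM in the same order of classes, whereas the start 15.2 kb into the gene (chrX:101313347-101314518) had 20.1, 4.68 and 4.07 CPM. Exc-Cdh12 was highest at that start with 32.5 CPM. The peaks at the CpG-rich starts of Nlgn2 and Nlgn1 were open in all classes, with 67.0, 90.4 and 103 CPM for Nlgn2 and 38.9, 34.6 and 21.7 CPM for Nlgn1.

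**Figure D2:**
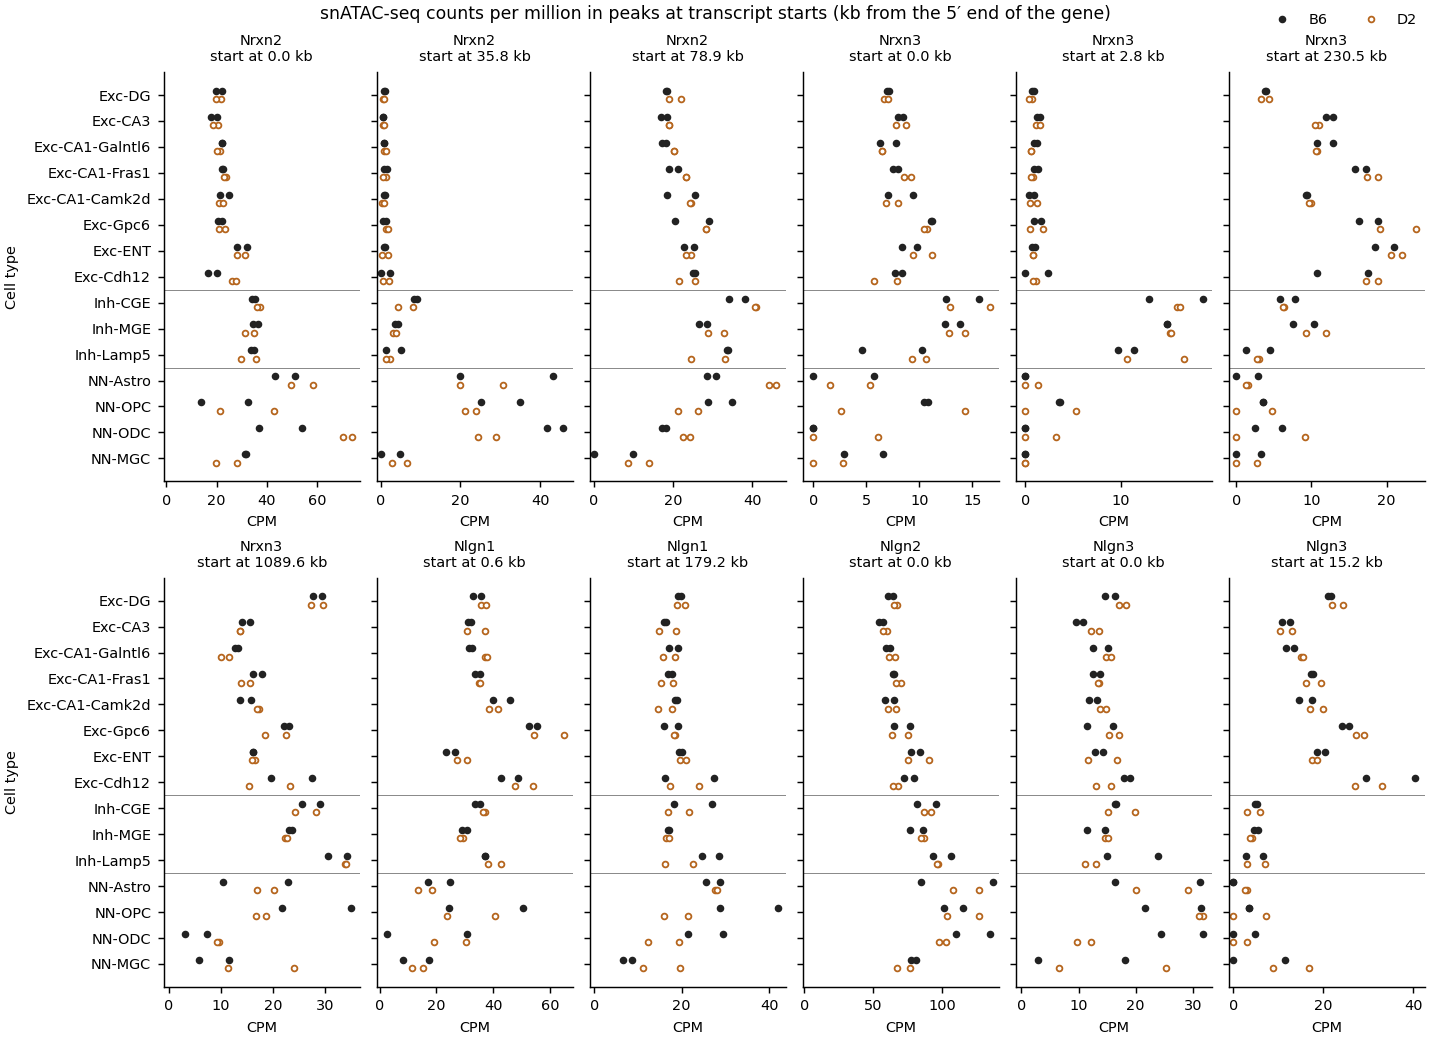
snATAC-seq CPM at the 12 start peaks of the members whose mean in at least 1 cell class was 12 CPM or more, with cell types on the vertical axis and a linear CPM axis of its own for each peak, where points are libraries of B6 (filled) and D2 (open). The Nrxn3 peak at 2.8 kb is high in the 3 inhibitory types, the Nlgn3 peak at 15.2 kb in the 8 excitatory types and the Nrxn2 peak at 35.8 kb in 3 of the 4 non-neuronal types.

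The second comparison was between strains within each cell type, tested with edgeR on all genes with counts in both strains and given as log2 fold changes of D2 over B6 with SE. The fold changes use TMM factors within the cell type, whereas the CPM values beside them are scaled to total counts, so that the 2 can differ. Members were mostly lower in D2. Of 83 tests of the members, 25 were called at a Benjamini-Hochberg adjusted p under 0.05, of which 24 were lower and 1 higher in D2. The called share was 30.1%, against 14.6% of all 205592 tests of all genes and cell types, where 8.4% were lower and 6.24% higher. The 83 tests repeat 5 genes over cell types of the same 4 libraries and are not independent. Of the 25 calls, 9 were of Nlgn3 and 8 of Nrxn3. The share of all genes was not matched for level. The members were chosen with earlier results of these data known, so that the shares are a description and no test of the 2 families. Without Nlgn3, which has the overlapping symbol, 16 of 68 tests were called (23.5%), 15 of them lower. In all 25 calls both D2 libraries lay on the same side of both B6 libraries, as they did in 99.7% of the calls of all genes. With 2 libraries against 2, an exact permutation test of a single gene cannot go below p = 0.333, so that the calls rest on the spread shared across genes, and the p-values measure the spread between pools of animals.

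The share of all genes called gives the background of each cell type. It was 25.6% in Exc-DG, 26% in Exc-CA1-Galntl6, 21.9% in Exc-CA3, 20.2% in Exc-CA1-Fras1, 18.6% in Exc-ENT, 12.5% in Exc-Gpc6, 9.4% in Exc-CA1-Camk2d and 3.3% in Exc-Cdh12. It was 11.8% in Inh-MGE, 8.13% in Inh-CGE, 8.43% in Inh-Lamp5 and 2.2% in CR-CR. In non-neuronal types it was 18.7% in astrocytes, 14.2% in oligodendrocytes, 11.3% in OPC, 8.13% in microglia and 5.82% in VLMC. The members were called most often in Exc-DG, Exc-Gpc6 and astrocytes, with 3 of 5 in each. None was called in Inh-MGE, Exc-Cdh12, CR-CR or microglia by edgeR or DESeq2, where 2 of 19 tests had an unadjusted edgeR p under 0.05.

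**Figure D3:**
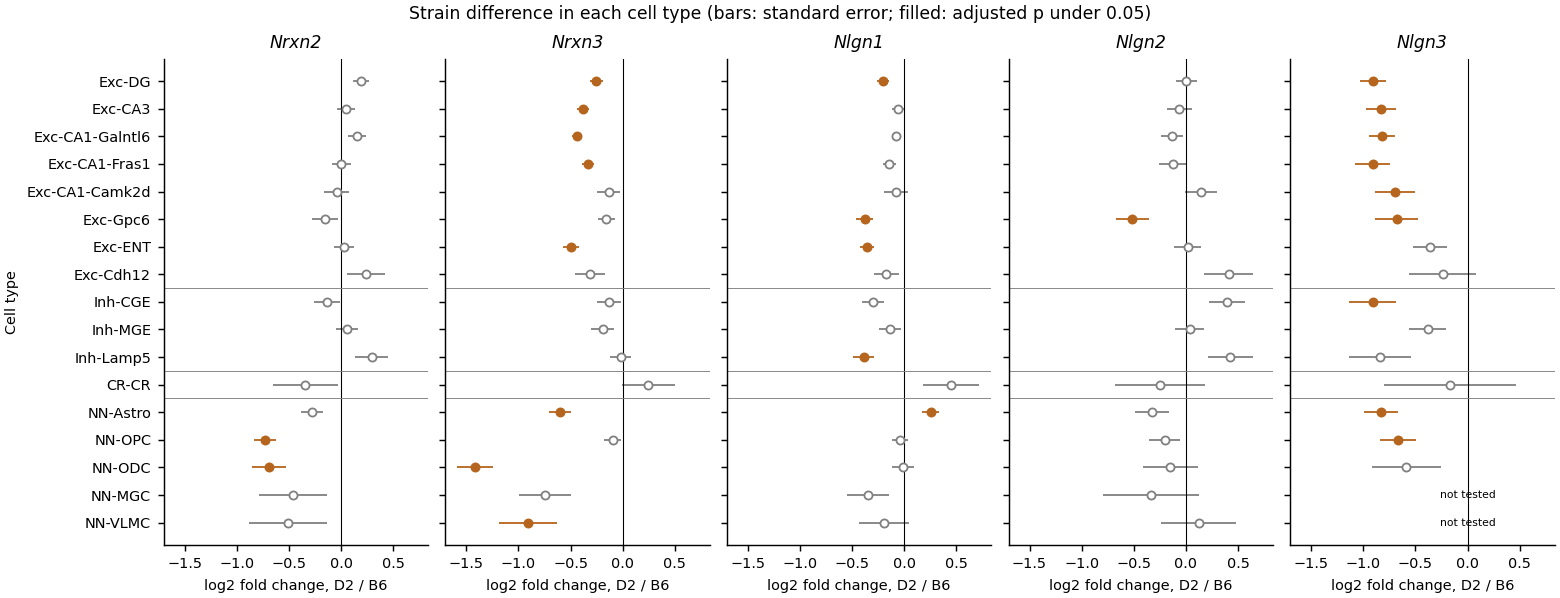
Strain difference of each member in each cell type, as the edgeR log2 fold change of D2 over B6 on the horizontal axis with bars of 1 standard error, filled where the adjusted p was under 0.05. All 15 tested Nlgn3 values lie below 0, Nrxn3 is below 0 in 16 of 17 types, and Nrxn2 lies on both sides of 0.

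Nrxn3 was lower in D2 in 8 of 17 cell types, 5 of them excitatory. In Exc-CA1-Galntl6 the B6 libraries had 2078 and 2191 CPM and the D2 libraries 1689.5 and 1621 CPM, which gave -0.44 ± 0.05 on the log2 scale (edgeR, adjusted p = 6.53e-07). In Exc-CA3 they had 4965 and 4954 CPM against 4097 and 3869 CPM (-0.38 ± 0.06, edgeR adjusted p = 0.000415). In both types the strains were separated by more than the distance between their own libraries. Exc-ENT had 1903 and 2121 CPM in B6 against 1622 and 1419 in D2 (-0.49 ± 0.08, edgeR adjusted p = 4.69e-05), and Exc-CA1-Fras1 had 3639.7 and 3561 against 2960.0 and 3221 (-0.33 ± 0.06, edgeR adjusted p = 0.000196). In Exc-DG, with 902 and 949 against 833 and 790.4 CPM, the difference was -0.25 ± 0.06 (edgeR, adjusted p = 0.00727) and lost the call without D2 replicate 3 (adjusted p = 0.0616). The interneurons in which Nrxn3 is most abundant had no called difference. In Inh-CGE, where the strains overlapped, the log2 fold change was -0.13 ± 0.11. In Inh-MGE it was -0.19 ± 0.11, and both D2 libraries, with 7579 and 7461 CPM, lay below both B6 libraries, with 8156 and 8159 CPM. Such an order held for 21.9% of the tests of all genes in neuronal types.

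The other Nrxn3 calls were in glia and vascular cells, at low levels. Oligodendrocytes had 156 and 235 CPM in B6 against 72.7 and 68.6 CPM in D2 (-1.41 ± 0.17, edgeR adjusted p = 2.04e-06), and astrocytes had 209.6 and 243 against 149.8 and 139 CPM (-0.60 ± 0.11, edgeR adjusted p = 0.000126). In VLMC the values were 225 and 230.2 against 156 and 67.6 CPM (-0.91 ± 0.28, edgeR adjusted p = 0.0347), and this call was lost with DESeq2 and without B6 replicate 2, B6 replicate 3 or D2 replicate 3, with an adjusted p of up to 0.572. Markers of neurons were detected in these cells. Between the strains the lists differed in both directions in oligodendrocytes and astrocytes, and only towards lower values in D2 in VLMC. Of 9 marker lists of neurons, 5 were lower in both D2 libraries and 2 higher in oligodendrocytes, 5 lower and 2 higher in astrocytes, and 3 lower and 0 higher in VLMC, and the others overlapped. In oligodendrocytes the summed level of the 3 excitatory markers was 82.9 to 90.5 CPM in B6 and 59.5 to 79.4 CPM in D2, of the 3 CGE markers 70.3 to 81.3 and 42.0 to 51.0 CPM, and of the 3 inhibitory markers 18.7 to 34.6 and 7.70 to 27.0 CPM, while the 3 dentate gyrus markers had 165 to 181 CPM in B6 and 203 CPM in both D2 libraries and the 3 CA3 markers had 84.5 to 90.5 and 93.8 to 109 CPM. The mean of the dentate gyrus list was 188 CPM in oligodendrocytes, beside 333 CPM in Exc-DG and 5.92 CPM in Exc-CA3. In astrocytes the excitatory markers had 75.1 to 75.8 CPM in B6 and 46.9 to 68.0 CPM in D2, and the inhibitory markers 18.2 to 23.7 and 21.1 to 24.7 CPM. The 2 lists higher in D2 in astrocytes were CA1, with 37.4 to 38.0 and 40.8 to 43.1 CPM, and CR, with 0.639 to 1.63 and 1.76 to 4.16 CPM. The CGE markers of astrocytes had 32.9 to 36.8 and 22.2 to 30.2 CPM. In VLMC the excitatory markers had 76.6 to 99.3 CPM in B6 and 63.7 to 91.3 CPM in D2, and the CGE markers 54.1 to 97.2 and 3.38 to 19.5 CPM. No marker of the lists with values given here was at 0, whereas in the CR list Lhx1 was at 0 in oligodendrocytes and Trp73 and Lhx1 in VLMC. The part of neuronal RNA in the Nrxn3 differences of these cells was not tested.

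Nrxn2 was called in 2 cell types, both of the oligodendrocyte lineage and both lower in D2. In OPC, where it is most abundant, the B6 libraries had 606 and 487 CPM and the D2 libraries 353 and 321 CPM, or -0.73 ± 0.11 on the log2 scale (edgeR, adjusted p = 4.14e-08). In oligodendrocytes the values were 119 and 101 against 62.2 and 67.9 CPM (-0.69 ± 0.16, edgeR adjusted p = 0.00377), a call that DESeq2 did not make (adjusted p = 0.106). The strains did not overlap in either type. In OPC the excitatory markers had 48.7 to 65.4 CPM in B6 and 40.9 to 62.2 CPM in D2 and the inhibitory markers 50.0 to 62.5 and 56.2 to 62.8 CPM, so that both ranges overlapped. Of the 9 lists for neurons, 2 were lower in both D2 libraries of OPC (CA1, with 33.5 to 55.2 and 17.5 to 23.9 CPM, and Lamp5, with 24.0 to 53.8 and 10.2 to 18.7 CPM) and 2 were higher, and the oligodendrocyte markers had 40.5 to 45.0 CPM in B6 and 19.0 to 28.1 CPM in D2. The part of RNA from other cells in the Nrxn2 difference was not tested. Both D2 libraries lay below both B6 libraries in 5 cell types, all of them non-neuronal, where this held for 27.9% of the tests of all genes. They lay above both in 7, all of them neuronal, where 34.9% of the tests of all genes lay above and 21.9% below. The log2 fold changes of these 7, with TMM factors, ran from 0.0016 in Exc-CA1-Fras1 to 0.29 in Inh-Lamp5. They were 0.025 in Exc-ENT and 0.048 in Exc-CA3. None of the 7 was called by edgeR or DESeq2, and only Exc-DG had an unadjusted edgeR p under 0.05 (0.0261). In Exc-DG, for example, Nrxn2 had 94.0 and 96.3 CPM in B6 and 109 and 118 CPM in D2 (0.19 ± 0.08, edgeR adjusted p = 0.0839).

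Nlgn1 was lower in D2 in 4 cell types and higher in 1. Exc-Gpc6 had 3471 and 3758 CPM in B6 against 2907 and 2975 CPM in D2 (-0.38 ± 0.08, edgeR adjusted p = 0.00142), and Exc-ENT had 1327 and 1325 against 1102 and 1099 CPM (-0.36 ± 0.07, edgeR adjusted p = 0.000447). Inh-Lamp5 had 2934 and 2987 against 2424 and 2343 CPM (-0.39 ± 0.10, edgeR adjusted p = 0.00572), a call lost without D2 replicate 3 (adjusted p = 0.0734). In each of these 3 types the lower B6 library was above the higher D2 library by more than the distance between the libraries of either strain. In Exc-DG, with 3568 and 3406 against 3266 and 3068 CPM, the difference of -0.20 ± 0.06 (edgeR, adjusted p = 0.0188) was lost without B6 replicate 2 or D2 replicate 3, with an adjusted p of up to 0.130. Astrocytes were the exception in direction, with 2312 and 2334 CPM in B6 and 2646 and 2717 CPM in D2 (0.25 ± 0.08, edgeR adjusted p = 0.0265). That call was lost with the replicate block (adjusted p = 0.0659) and without either D2 library, with an adjusted p of up to 0.256. In Exc-CA3 and Exc-CA1-Galntl6, with higher levels of Nlgn1 than these types, the log2 fold changes were -0.06 ± 0.06 and -0.08 ± 0.04 and were not called.

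Nlgn2 was called in 1 of 17 cell types, Exc-Gpc6, with 67.2 and 60.3 CPM in B6 against 44.2 and 51.0 CPM in D2 (-0.51 ± 0.16, edgeR adjusted p = 0.0273). The call was lost with DESeq2 (adjusted p = 0.591) and without B6 replicate 2 or D2 replicate 2, with an adjusted p of up to 0.261. Both D2 libraries were above both B6 libraries in 5 cell types (Inh-CGE, Inh-Lamp5, Exc-Cdh12, Exc-ENT and Exc-CA1-Camk2d) and below both in 5. Of the tests of all genes, 34.9% lay above and 21.9% below in neuronal types, and 24.2% above and 27.9% below in non-neuronal types. In Inh-MGE the strains overlapped. Inh-CGE had 38.1 and 46.5 CPM in B6 against 56.2 and 59.9 CPM in D2 (0.40 ± 0.17, edgeR adjusted p = 0.192), and Inh-Lamp5 had 57.2 and 49.8 against 79.0 and 72.1 CPM (0.43 ± 0.21, edgeR adjusted p = 0.25), so that neither passed the threshold.

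Nlgn3 was lower in D2 in all 9 cell types in which it was called, of 15 tested, and it did not pass the filter on low counts in microglia and VLMC. The log2 fold changes of the 15 types ran from -0.91 to -0.17 with a median of -0.69. In Exc-DG the B6 libraries had 38.9 and 48.8 CPM and the D2 libraries 22.5 and 26.6 CPM (-0.90 ± 0.12, edgeR adjusted p = 5.77e-05). In Exc-CA1-Galntl6 the values were 34.4 and 34.7 against 21.1 and 19.97 CPM (-0.82 ± 0.13, edgeR adjusted p = 6.83e-05), and in astrocytes 49.5 and 42.5 against 27.0 and 23.0 CPM (-0.83 ± 0.16, edgeR adjusted p = 0.000447). No D2 library reached a B6 library in these types. Exc-CA3 with 29.9 and 28.4 against 16.1 and 18.4 CPM and Exc-CA1-Fras1 with 31.8 and 31.2 against 17.5 and 18.8 CPM gave -0.83 ± 0.15 and -0.91 ± 0.17 (edgeR, adjusted p = 0.000918 and 0.000365).

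The other 4 Nlgn3 calls depended on the test or on single libraries. OPC had 91.5 and 82.3 CPM in B6 against 57.9 and 54.0 CPM in D2 (-0.66 ± 0.17, edgeR adjusted p = 0.00379), Inh-CGE had 34.3 and 42.7 against 20.3 and 22.5 CPM (-0.91 ± 0.22, edgeR adjusted p = 0.0144), Exc-Gpc6 had 36.0 and 36.3 against 25.5 and 21.2 CPM (-0.68 ± 0.21, edgeR adjusted p = 0.0283), and Exc-CA1-Camk2d had 26.9 and 34.9 against 20.5 and 19.7 CPM (-0.69 ± 0.19, edgeR adjusted p = 0.0414). DESeq2 made none of these 4 calls, and the call in Inh-CGE was also lost with no filter on low counts. Each was also lost without D2 replicate 3, in OPC also without B6 replicate 2, in Exc-Gpc6 without B6 replicate 3, and in Inh-CGE and Exc-CA1-Camk2d without B6 replicate 3 or D2 replicate 2, with an adjusted p of up to 0.0835, 0.151, 0.454 and 0.320 in that order of types.

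Every Nlgn3 value above stands beside the overlap with Gm21986, because genes with such an overlap were mostly lower in D2. In Exc-DG, 216 tested genes had at least 50% of their span covered by a same-strand symbol with counts in D2 only. Of these genes 67.1% were called lower in D2, with a median log2 fold change of -1.21, against 13.1% of the other 15647 genes, with a median of 0.02. In astrocytes the shares were 65.3% of 193 genes and 9.8% of the others, in Exc-CA1-Galntl6 67.2% of 204 and 13.6%, and in Exc-CA3 64.4% of 202 and 11.4%. A strain difference in Nlgn3 and an effect of the overlapping symbol cannot be told apart. Adding the counts of Gm21986 to Nlgn3 ended only the call in Exc-CA1-Camk2d. Those counts were 3.361% of the D2 counts of Nlgn3, so that adding them could move the differences only slightly. The sum therefore cannot show whether the overlap had an effect. The same-strand symbols with counts in D2 only, Gm48692 and Gm48700, cover 0.15% and 0.27% of the Nrxn3 span.

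Whether the strain difference of a member varied among cell types was tested with an interaction term over the 17 types, for which 16.6% of 18599 genes were called. It was called for Nrxn2 (edgeR, adjusted p = 1.13e-06), Nrxn3 (0.00167) and Nlgn2 (0.0308), and not for Nlgn1 (0.0585) or Nlgn3 (0.55). For Nrxn2 the log2 fold changes were -0.73 in OPC and -0.69 in oligodendrocytes, beside 0.19 in Exc-DG. For Nrxn3 the values ran from -1.41 in oligodendrocytes to 0.25 ± 0.25 in CR-CR. The Nrxn2 call held without each library, with an adjusted p of at most 0.0015. The Nrxn3 call was lost without B6 replicate 3 (0.0602), the Nlgn2 call without any 1 of the 4 libraries (0.0539 to 0.397), and Nlgn1 passed with RLE normalization (0.0272), with the cell types of at least 100 nuclei (0.0192) and without D2 replicate 2 (0.00779).

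Accessibility at the transcript starts of the members showed few strain differences. Of 152 tests of the 15 start peaks in 15 cell types, 2 were called, against 4.3% of all 1607654 tests of all peaks. The 5′ peak of Nlgn1 (chr3:26330842-26333967), which holds the Nlgn1 promoter printed above, had 31.3 and 32.5 CPM in B6 and 37.1 and 37.6 CPM in D2 in Exc-CA1-Galntl6 (0.26 ± 0.08, edgeR adjusted p = 0.0238), where 6.42% of peaks were called. The 5′ peak of Nlgn3 (chrX:101298803-101300905) had 10.8 and 9.58 against 13.6 and 12.2 CPM in Exc-CA3 (0.36 ± 0.12, edgeR adjusted p = 0.0412), where 6.14% were called. Both were higher in D2, and neither was called with DESeq2 or without B6 replicate 3. At the 2 start peaks of Nlgn3, 6 of 24 tests lay below 0 and the median log2 fold change was 0.12, beside the median of -0.69 in its snRNA-seq level. No start peak of Nrxn2, Nrxn3 or Nlgn2 was called with edgeR or DESeq2, and 3, 1 and 1 of their tests had an unadjusted edgeR p under 0.05.

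Outside the start peaks, Nrxn3 had 27 calls in 1326 tests of 280 peaks (2.04%), of which 25 were lower and 2 higher in D2, and DESeq2 made 1. Among them the peak at chr12:88733788-88734387 was lower in Exc-CA1-Galntl6 (-1.04 ± 0.16, edgeR adjusted p = 4.2e-07) and in Exc-CA1-Fras1 (-1.25 ± 0.36, edgeR adjusted p = 0.0301), and 2 others, at chr12:90159809-90160811 and chr12:90165736-90166470, were each called in Exc-CA3 and 1 CA1 type. These 3 peaks were named after their values were seen. Nlgn1 had 6 calls in 958 tests, 5 of them higher in D2, Nrxn2 and Nlgn2 had 1 call each in 188 and 30 tests, and Nlgn3 had 0 in 20, with 2 at an unadjusted edgeR p under 0.05. DESeq2 called none of the peaks of these 4 genes. All these edgeR shares were below the 4.3% of all peaks.

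The known partners of neurexins and neuroligins were compared in the same way. Of 34 listed genes 33 could be tested, and 113 of 471 tests were called (24%), 94 lower and 19 higher in D2, beside 14.6% of all tests. As for the members, these tests repeat genes over cell types of the same libraries and are not independent. The partner list was also chosen with earlier results of these data known, so that its share is a description. Lower values in D2 prevailed in all 6 role groups. No partner had more than 1.12% of its span covered by any same-strand symbol with counts in D2 only. The count fell to 60 without D2 replicate 3 and to 57 with DESeq2.

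Among the postsynaptic and secreted ligands of neurexins, 33 of 159 tests were called. Lrrtm4, a leucine-rich repeat protein of excitatory postsynapses, was lower in D2 in 13 of 17 cell types, with -1.10 ± 0.12 in astrocytes (edgeR, adjusted p = 6.75e-08), and its relative Lrrtm3 was lower in 5 types, with -1.29 ± 0.15 in astrocytes (edgeR, adjusted p = 3.2e-07). In astrocytes 5 of 9 marker lists of neurons were also lower in both D2 libraries and 2 higher. The part of neuronal RNA in these 2 astrocyte values was not tested. Grid1, a postsynaptic receptor that cerebellins bridge to neurexins and that is not counted among these tests, was lower in 4 types, with -0.39 ± 0.07 in Exc-DG (edgeR, adjusted p = 0.00107).

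Of the cytoplasmic partners of neurexins, with 15 of 65 tests called, the PDZ protein Sdcbp was lower in 8 types, with -0.51 ± 0.09 in Exc-CA1-Galntl6 (edgeR, adjusted p = 0.000255), and Lin7a was lower in 4. Of the postsynaptic scaffolds, with 27 of 132 tests called, Shank2 was lower in 8 types, with -0.46 ± 0.06 in Exc-CA1-Galntl6 (edgeR, adjusted p = 2.37e-05), and Magi2 in 6, with -0.27 ± 0.04 in the same type (edgeR, adjusted p = 5.23e-05). The MDGA proteins, which block the binding of neuroligins to neurexins, went in opposite directions with 7 of 30 tests called. Mdga2 was lower in 5 types and Mdga1 higher in Exc-CA3 and Exc-CA1-Fras1, with 0.43 ± 0.12 in Exc-CA3 (edgeR, adjusted p = 0.0179).

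The KH-domain splicing factors that act on an alternative exon of neurexins had the highest share of calls, 20 of 51 tests (39.2%). Khdrbs2 was lower in D2 in 13 cell types, with -1.56 ± 0.19 in Inh-Lamp5 (edgeR, adjusted p = 3.27e-09), and higher in VLMC. Khdrbs3 was lower in 3 types, with -1.08 ± 0.10 in Exc-DG (edgeR, adjusted p = 5.32e-07), and higher in Exc-Gpc6 and Inh-Lamp5. The strain difference varied among cell types for both (interaction, edgeR adjusted p = 9.4e-12 and 2.4e-08). The count tables hold no isoforms, so that the splicing of the members was not measured.

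**Figure D4:**
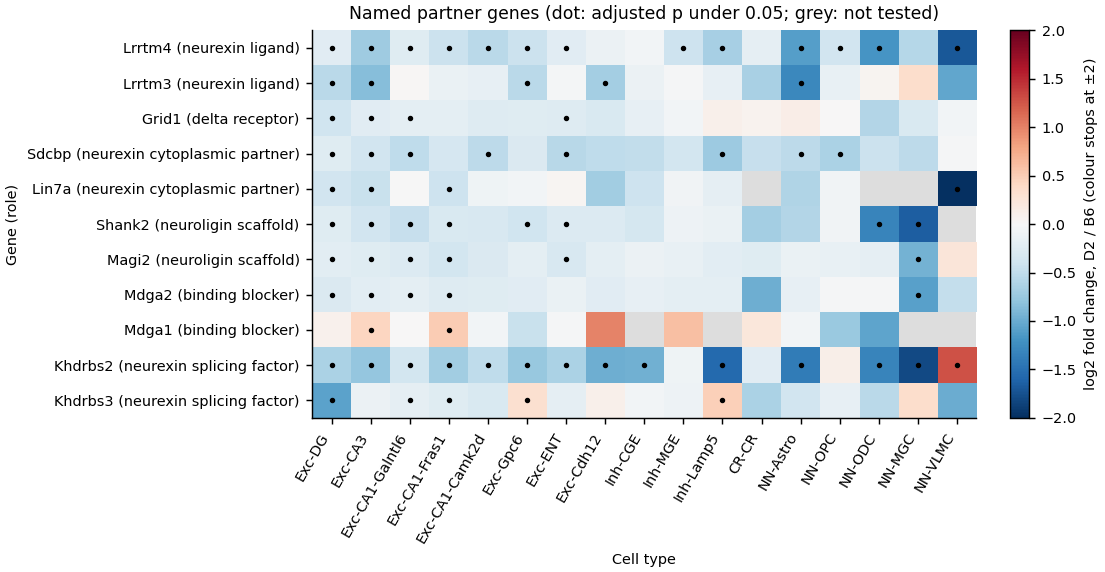
Log2 fold changes of D2 over B6 for the named partner genes of each role group, with genes in rows, cell types in columns, blue for lower and red for higher in D2 (colours end at ±2), a dot where the edgeR adjusted p was under 0.05 and grey where the gene was not tested. Lrrtm4 is lower in 13 and Khdrbs2 in 13 of the 17 cell types, and Mdga1 is called only as higher, in 2.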

How the data were processed

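The snRNA-seq and snATAC-seq count tables were used as deposited. They hold raw counts per gene symbol or peak that the authors summed over the nuclei of each cell type and library, with replicates kept apart. Per the submitters' processing notes and the study's methods, B6 reads were mapped to mm10 and D2 reads to mm10 with D2 variants inserted, using Cell Ranger 6.0.2 with introns for RNA and Cell Ranger ATAC 2.0.0 for chromatin, doublets were removed with DoubletFinder, nuclei were clustered with Seurat 4.0.5 peaks were called with MACS, and the cell types of the snATAC-seq nuclei were transferred from the snRNA-seq nuclei. Separate references and gene lists for the strains can shift counts between them: 960 symbols had counts in B6 only and 8204 in D2 only, taking 0.814% of B6 and 3.55% of D2 counts, and the 24691 symbols with counts in both were tested. The 16 methylation samples of the series were not used here.

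Each cell type was tested with edgeR 4.0.16 (R 4.3.3; quasi-likelihood, TMM factors, filterByExpr, D2 minus B6, Benjamini-Hochberg over all genes or peaks of the type, threshold 0.05), with scripts tested on simulated data. An interaction term over all types, with library as a term, tested whether the strain difference varied. Alternatives were DESeq2 1.42.0, the study's tool, RLE factors, no filter on low counts, a minimum of 10 counts for peaks, start peaks within 500 bp, every symbol, types with at least 100 nuclei, a replicate block, same-strand symbols added and leaving out each library. Named genes were the members, overlapping symbols with counts, the 3 genes most like each member with a mean of at least 10 CPM, and of each partner role the 2 genes called in the most types. Of these, 1 gene is not reported here. The members, partner and marker lists were chosen with earlier results of these data known. Annotation was GENCODE vM21, and promoters came from RefSeq. Library numbers were not taken as pairs: deviations of same-numbered libraries correlated from -0.153 to 0.0597 over cell types. The depth of a column, from 139713 counts in snRNA-seq and 278059 in snATAC-seq, limits the precision of its values.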

Additional observations from a re-analysis of the deposited data

Results flagged for a closer look

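The strain difference varied among the 17 cell types for 3 of the 5 members by the interaction test (edgeR, Benjamini-Hochberg adjusted p), which 16.6% of all genes passed. The values were 1.13e-06 for Nrxn2, 0.00167 for Nrxn3 and 0.0308 for Nlgn2. Nrxn2 had called differences in OPC and oligodendrocytes, both lower in D2, and none of its neuronal differences was called, with an unadjusted edgeR p under 0.05 only in Exc-DG (0.0261). Nrxn3 had log2 fold changes of D2 over B6 from -0.49 to -0.25 in the 5 excitatory types called and of -1.41 in oligodendrocytes. It was not called in any interneuron type, with -0.19 in Inh-MGE, -0.13 in Inh-CGE and -0.02 in Inh-Lamp5. Nlgn2 had log2 fold changes from -0.51 in Exc-Gpc6 to 0.43 in Inh-Lamp5, and its interaction was not called when any 1 library was left out (0.0539 to 0.397).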

How the results depend on the processing

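Calls of the 5 members in single cell types numbered 25, and from 18 to 26 under the alternatives, with 18 by DESeq2 and 17 to 25 when 1 library was left out. The replicate block gave 25, of which 24 were among the first 25, and 14 of the 25 were made under every alternative. The lowest count came without D2 replicate 3, which ended 9 of the 25 calls. Calls of all genes numbered 30094, against 48620 with every symbol tested, 11815 by DESeq2, 31494 with the replicate block and 18483 to 28774 with 1 library left out. Members whose strain difference varied among cell types numbered 3, against 4 with RLE normalization and with the cell types of at least 100 nuclei, where Nlgn1 was added, and 1 to 3 with 1 library left out, the lowest without B6 replicate 3. Start peaks called numbered 2, against 0 by DESeq2, 2 with the replicate block and 0 to 2 with 1 library left out. Partner calls numbered 113, against 57 by DESeq2, 109 with the replicate block and 60 to 110 with 1 library left out. The causes of these shifts were not tested.

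Level ratios between cell classes moved with the scaling by more than the spread of the libraries. As log2 ratios of inhibitory over excitatory types, with TMM factors over all columns and then with counts summed over the class, Nrxn2 was 0.41 and 0.56 (0.54 as reported), Nrxn3 1.55 and 1.98 (1.67), Nlgn1 -1.28 and -1.38 (-1.13), and Nlgn3 turned to -0.047 and -0.0040 (0.09). Of neurons over non-neuronal types they were 2.88 and 2.53 for Nrxn3 (2.74) and 1.02 and 0.58 for Nlgn1 (0.90), while summed counts gave -0.72 for Nrxn2 (-0.30) and TMM gave 0.19 for Nlgn2 (-0.01).

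Same-numbered libraries share only a number, and their deviations from the strain means correlated from -0.153 to 0.0597 in snRNA-seq and from -0.0329 to 0.0468 in snATAC-seq. In Inh-MGE, where the correlation was -0.153, a crossed pairing chosen after seeing the data called 2798 genes, 1 of them a member, against 1535 with the replicate block and 1643 without. The shallowest cell type and library held 139713 counts, which limits the precision of its values.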
